A study of Mus musculus with 6 samples.

Results

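The keratin gene family was examined in partially reprogrammed mouse melanoma cells. Its members were all genes whose mouse symbol is Krt followed by a number and which had at least 1 probe set annotated to that gene alone. This gave 48 keratin genes of 18193 genes measured, 25 of type I and 23 of type II, covered by 61 of 45037 probe sets. A probe set is the group of short probes that reads 1 transcript on the array. Of the 48 genes, 39 had 1 probe set and 9 had several, and the brightest probe set by its mean of all arrays stood for the gene. Of 55 keratins listed, 7 (Krt9, Krt39, Krt40, Krt74, Krt85, Krt87 and Krt90) had no such probe set and were not analysed here.

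The cells were 4434, a mouse melanoma line with the V600E mutation of Braf. All cells of both groups held a lentiviral vector for doxycycline-driven Oct4 (Pou5f1), Sox2, Klf4 and blasticidin resistance, and a further vector for the transactivator rtTA3 and mCherry. The + dox cells were given doxycycline in reprogramming medium with blasticidin selection, and the − dox cells held both vectors without doxycycline. The − dox cells had medium without doxycycline, and whether their base medium or selection differed otherwise is not stated. The paper checked doxycycline in parental cells of this line by qPCR of stemness and melanocyte markers, with no keratin among them. On these arrays, doxycycline, the factors, the selection and any difference in medium cannot be told apart. RNA of both groups was taken at day 20 and hybridised to Affymetrix mouse genome arrays, 3 per group. Whether the 3 arrays of a group were separate cultures is not stated. The p-values therefore cover the spread among these arrays alone, which may be technical. Only 1 cell line was used.

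Keratins are the intermediate filament proteins of epithelial cells. A type I and a type II keratin bind each other as obligate partners, and these pairs build the filaments. The pair in use marks the kind of epithelium: Krt8 and Krt18 in simple epithelia, Krt5 and Krt14 in the basal layer of stratified epithelia, Krt1 and Krt10 in the layers above it in the epidermis. Krt6a, Krt6b, Krt16 and Krt17 are the stress keratins, induced in wounded or hyperproliferative epidermis. Hair keratins build the hair shaft and its inner root sheath. Melanocytes and melanoma cells normally rely on vimentin and not on keratin filaments.

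Of the 48 keratin genes, 5 were higher in + dox cells (Krt16, Krt6b, Krt14, Krt13 and Krt20), 0 were lower and 43 did not pass the test. The test was limma, and a gene was called at a Benjamini-Hochberg adjusted p under 0.05 among all 18193 genes. Of all genes, 3.07% were called higher and 1.8% lower. At an unadjusted p under 0.05 there were 7 keratins, all higher, or 14.6% of the family against 21.7% of all genes in either direction. Of the 18193 genes, 2015 were higher and 1927 lower at that threshold, so the share of 1 direction is smaller than 21.7%. In 10 keratins (20.8%) every + dox array stood above every − dox array, against 14.3% of all genes, and in 0 keratins below, against 12.6%. The median change of the family was 0.08 on the log2 scale, and that of all genes was 0.01. Most members moved little and a few moved far, with changes that ran from −0.11 to 5.93. Counted by probe set, 5 of 61 were called higher and 0 lower, against 1.64% and 0.884% of all probe sets.

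**Figure D1:**
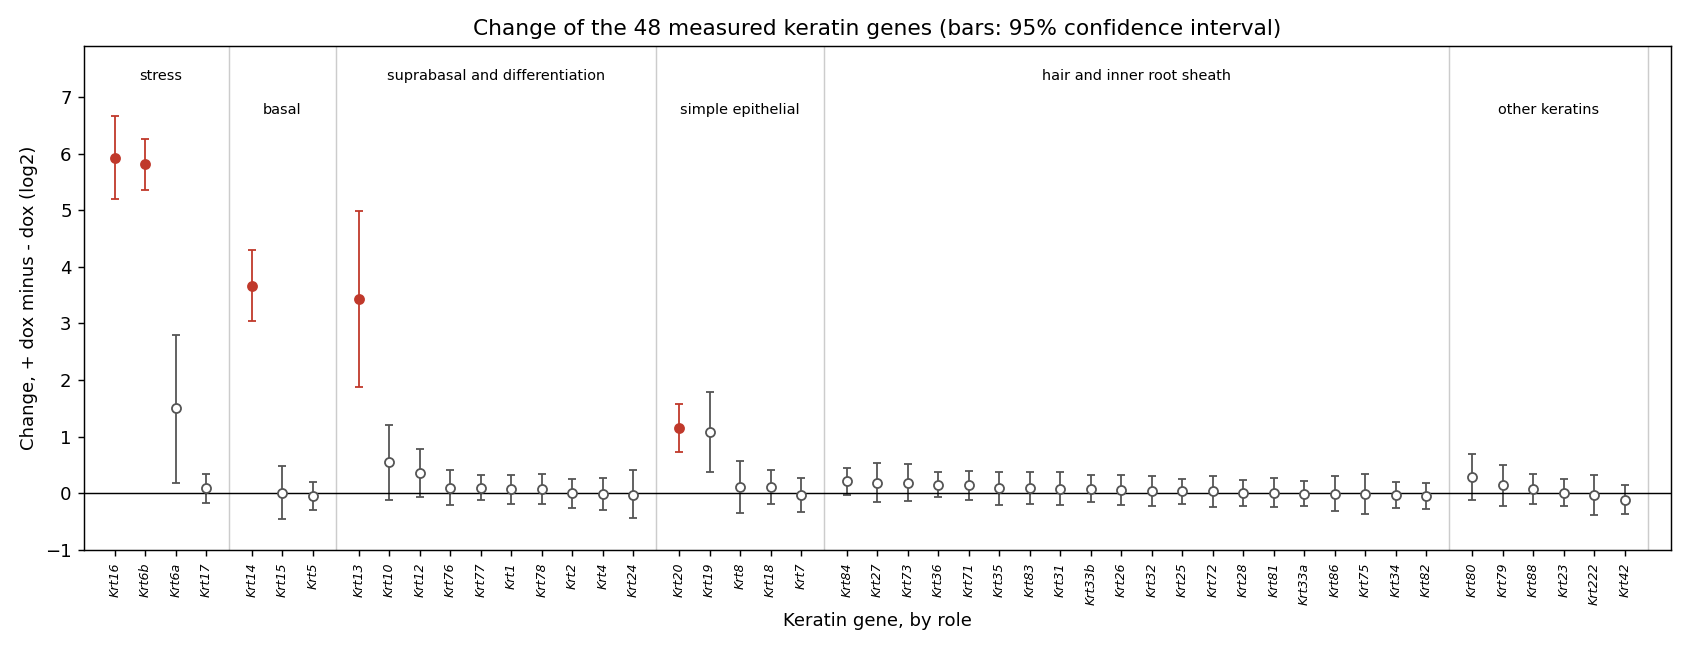
Change of each measured keratin gene (+ dox minus − dox, log2 scale), grouped by role. Points are the fitted changes from 3 arrays per group, bars are 95% confidence intervals not adjusted for the number of genes, and filled red points passed the adjusted test. Krt16, Krt6b, Krt14 and Krt13 stand between 3.43 and 5.93, Krt20 at 1.15, and the hair keratins lie between −0.04 and 0.21.

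Medians of log2 values were 5.33 to 5.37 and lower quartiles 3.84 to 3.90 over the 6 arrays. RMA processing sets the arrays to a common distribution, so this evenness says nothing of the raw arrays. The arrays were not equally spaced. On the first principal component (63.2% of the variance) + dox 1 lay at −10.5, nearer to the − dox arrays (30.7 to 39.6) than + dox 2 at −41.9 and + dox 3 at −54.4. The next component (20%) set − dox 1, at −40.7, apart from − dox 2 and 3, at 19.1 and 19.3. For some of the named genes, results are also given without 1 or both of these arrays.

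The stress keratins Krt16 and Krt6b changed most. Krt16, the type I stress keratin that pairs with Krt6, was at 9.44, 9.94 and 10.72 (log2 level) in + dox arrays 1, 2 and 3, and at 4.15, 4.15 and 4.0 in − dox arrays 1, 2 and 3. The − dox values lay close to the dim end of the array, and the groups were far from overlapping. Krt16 rose from 4.10 ± 0.09 to 10.03 ± 0.65 (SD, n = 3), a change of 5.93 (SE 0.30, limma adjusted p = 0.000422). Its type II partner Krt6b was at 10.19, 9.52 and 10.17 in + dox arrays and at 4.15, 4.15 and 4.16 in − dox arrays. All + dox arrays were again high, with + dox 2 the lowest of them. The change of Krt6b was 5.81 (SE 0.19, limma adjusted p = 6.51e-05), from 4.15 ± 0.01 to 9.96 ± 0.38 (SD, n = 3). On the RMA scale these changes are 61.1-fold for Krt16 and 56-fold for Krt6b, and since their − dox values are dim and RMA compresses dim values, either fold may be understated. The 95% confidence intervals of the changes of Krt16 and Krt6b, 5.20 to 6.66 and 5.35 to 6.26, overlapped. Both remained past the test when tested against a 2-fold change (limma treat adjusted p = 0.00111 and 0.00016) and whichever array was left out.

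Krt6a, the close paralog of Krt6b, did not pass the test. It was at 9.05, 6.72 and 7.52 in + dox arrays and at 6.27, 6.41 and 6.12 in − dox arrays. Each + dox array lay above all − dox arrays, but + dox 2 by only a small step and + dox 1 by far the most. The change was 1.50 (SE 0.54, 95% confidence interval 0.19 to 2.80, unadjusted p = 0.0302, limma adjusted p = 0.175), from 6.27 ± 0.15 to 7.76 ± 1.18 (SD, n = 3). Without + dox 1 it was 0.85. The other 2 probe sets of Krt6a kept the same order of + dox arrays. Probe set 1422784_at read 11.2, 6.0 and 9.02 against 4.62, 4.42 and 4.46, a change of 4.24 (SE 1.18, limma adjusted p over probe sets = 0.123), and 1427700_x_at changed by 0.78 (adjusted p = 0.409). Krt6a and Krt6b are near-identical in their coding sequence, so each probe set may read RNA of both, and cross-binding was not tested.

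Krt17, the remaining stress keratin and a further type I partner of Krt6, stayed dim. Its levels were 3.31, 3.57 and 3.37 in + dox arrays and 3.33, 3.40 and 3.26 in − dox arrays, under the lower quartile of each array. The groups overlapped, and the change was 0.09 (95% confidence interval −0.17 to 0.34, adjusted p = 0.713). Its other probe set, equally dim, differed by 0.31 (adjusted p over probe sets = 0.147). Of the 4 stress keratins, 2 were thus called (50%, against 3.07% of all genes called higher), and the median change of the 4 was 3.65.

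Among basal keratins, Krt14 rose and its partner Krt5 was not called. Krt14 was at 8.21, 7.68 and 8.77 in + dox arrays and at 4.67, 4.47 and 4.50 in − dox arrays. The groups were separated by about 3 log2 units, and + dox 2 was again the lowest + dox array. The change was 3.67 (SE 0.26, 12.8-fold, limma adjusted p = 0.00173), from 4.55 ± 0.11 to 8.22 ± 0.55 (SD, n = 3). It remained past the test in the treat test against 2-fold (adjusted p = 0.00894) and with each array left out. Krt5, the type II keratin of basal keratinocytes, was at 4.69, 4.67 and 4.68 in + dox arrays and at 4.58, 4.86 and 4.75 in − dox arrays. These values overlapped, and the difference was −0.05 (95% confidence interval −0.30 to 0.20, adjusted p = 0.844). The type I basal and follicular keratin Krt15 differed by 0.01 (95% confidence interval −0.45 to 0.48). The test of the difference between the changes of Krt14 and Krt5 was not made, but their intervals, 3.04 to 4.30 and −0.30 to 0.20, do not meet.

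The probe sets of Krt14 did not read alike, and the mean of all 3 changed by 2.01 (limma adjusted p = 0.00514) in place of 3.67. The probe set that represents the gene (1423935_x_at) and 1460347_at were both called, the latter at 6.67, 5.98 and 7.43 against 4.26, 4.32 and 4.12 (change 2.46, SE 0.34, limma adjusted p over probe sets = 0.0238). The third, 1455573_at, was at 3.85, 4.25 and 3.90 against 3.93, 4.25 and 4.15 (change −0.11, adjusted p = 0.769). It was dim in both groups. A further probe set annotated to Krt17 and Krt14 together was at 5.13 ± 0.14 in + dox and 5.15 ± 0.01 in − dox cells (SD, n = 3), a difference of −0.02 (95% confidence interval −0.27 to 0.22), and was not counted for either gene. A probe set whose name ends in _x_at holds probes that can bind other transcripts as well. The type I stress and basal keratins resemble each other in sequence, and cross-binding was not tested.

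**Figure D2:**
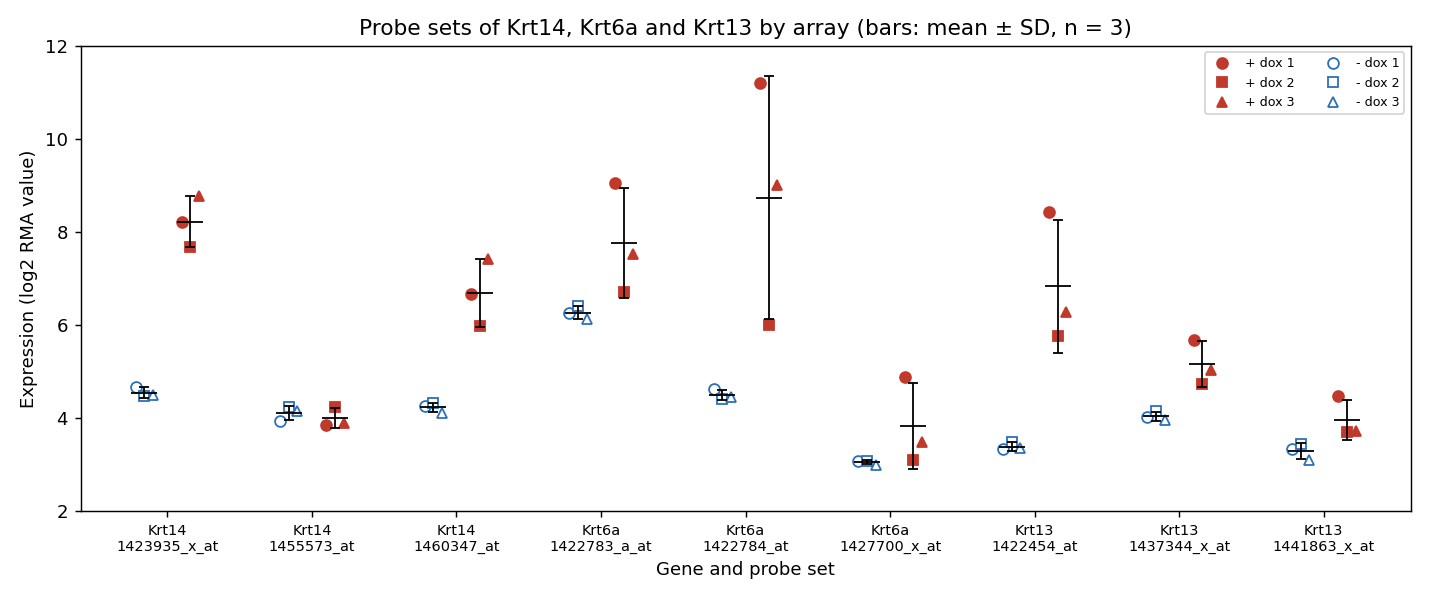
Log2 level of each probe set of Krt14, Krt6a and Krt13 in each array. Red filled symbols are + dox arrays, blue open symbols are − dox arrays, and bars are the mean ± SD of 3 arrays. For Krt14, 2 probe sets separate the groups and 1455573_at does not, and all probe sets of Krt6a and Krt13 are highest in + dox 1.

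Krt13 was the only called keratin among the 10 measured suprabasal and differentiation keratins (10%, against 3.07% of all genes called higher). Their changes ran from −0.02 to 3.43 with a median of 0.09. Krt13 is the type I keratin of the upper layers of oral and oesophageal epithelium. It was at 8.44, 5.76 and 6.28 in + dox arrays and at 3.33, 3.49 and 3.36 in − dox arrays. The groups did not overlap, + dox 1 was well above the other + dox arrays, and all − dox values lay under the lower quartile, so no fold is given. The change was 3.43 (SE 0.65, 95% confidence interval 1.88 to 4.98, limma adjusted p = 0.0386), from 3.39 ± 0.09 to 6.83 ± 1.42 (SD, n = 3). Without + dox 1 the change was 2.63 (adjusted p = 0.00168), but without any 1 of the other 5 arrays the call was lost (changes 3.40 to 3.97, adjusted p from 0.053 without − dox 1 to 0.137 without − dox 3). The mean of its 3 probe sets changed by 1.74 (adjusted p = 0.0521). All 3 probe sets had every + dox array above every − dox array, and 0 of the 3 passed the adjustment over probe sets.

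Its type II partner in mucosal epithelium, Krt4, was at 5.38, 5.18 and 5.06 in + dox arrays and at 5.18, 5.32 and 5.15 in − dox arrays. The groups overlapped, with a difference of −0.01 (95% confidence interval −0.29 to 0.27, adjusted p = 0.977). Krt10, the type I keratin of the suprabasal epidermis, was at 6.10, 6.48 and 6.48 in + dox arrays and at 6.43, 5.46 and 5.53 in − dox arrays. Array − dox 1 lay among the + dox arrays, and the change of 0.55 did not pass the test (95% confidence interval −0.11 to 1.21, adjusted p = 0.322). Without − dox 1 it was 0.86 (adjusted p = 0.0298), and without both arrays numbered 1 it was 0.99 (adjusted p = 0.00199). Its partner Krt1 was at 4.45, 4.38 and 4.36 against 4.37, 4.45 and 4.15, which overlapped (difference 0.07, 95% confidence interval −0.19 to 0.33). Krt78, the type II member of this group with the highest log2 value, was at 6.15 in + dox and 6.08 in − dox cells on average.

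Krt20 was the only called keratin of the 5 measured simple epithelial ones (20%, against 3.07% of all genes called higher). It is known from the gut epithelium, the urothelium and Merkel cells. It was at 4.95, 5.62 and 5.24 in + dox arrays and at 4.20, 4.11 and 4.06 in − dox arrays. The groups did not overlap, and the + dox values lay near the array median. The change was 1.15 (SE 0.17, 2.21-fold, limma adjusted p = 0.0225), from 4.12 ± 0.07 to 5.27 ± 0.34 (SD, n = 3). The call was lost without + dox 2 (change 0.97, adjusted p = 0.053), + dox 3 (1.16, 0.093), − dox 2 (1.14, 0.0906) or − dox 3 (1.11, 0.105), and Krt20 was not past a 2-fold change (treat adjusted p = 1).

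Krt19, a type I keratin of simple and ductal epithelia, was at 5.13, 4.71 and 5.82 in + dox arrays and at 4.47, 4.05 and 3.90 in − dox arrays. All + dox arrays were above all − dox arrays, by a narrow margin between + dox 2 and − dox 1. The change of 1.08 (SE 0.30, 95% confidence interval 0.37 to 1.79, unadjusted p = 0.00927) missed the threshold with limma adjustment over all genes (adjusted p = 0.0951). Without both arrays numbered 1 it was 1.29 (adjusted p = 0.0393). The general simple epithelial pair, the first keratins made in the embryo, did not separate the groups. Krt8 was at 4.94, 4.87 and 5.32 against 4.71, 5.26 and 4.80 (difference 0.12, 95% confidence interval −0.34 to 0.58). Krt18 was at 2.95, 2.95 and 3.26 against 2.85, 2.92 and 3.06 (difference 0.11, 95% confidence interval −0.19 to 0.41), under the lower quartile on all arrays. The type II keratin Krt7 of ductal epithelium differed by −0.02 (95% confidence interval −0.33 to 0.28).

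The largest group, the 20 measured keratins of hair and its inner root sheath, had 0 calls in either direction by limma. Of all genes, 3.07% were called higher and 1.8% lower. The group had 0 members at an unadjusted p under 0.05, against 21.7% of all genes. Their changes ran from −0.04 to 0.21 with a median of 0.05, and the lowest adjusted p was 0.273. The highest log2 values, which are not amounts of RNA across different probe sets, were those of the hair shaft keratins Krt81, at 7.12 in + dox and 7.10 in − dox cells, and Krt83, at 6.92 and 6.83. In 3 of them (15%, against 14.3% of all genes) all + dox arrays lay above all − dox arrays, by small amounts. These were Krt36, Krt73 and Krt84 (change of Krt84 0.21). The 6 other keratins had 0 calls and 0 members at an unadjusted p under 0.05, with Krt80 at 0.29 (95% confidence interval −0.11 to 0.69) and Krt42 at −0.11 (95% confidence interval −0.37 to 0.14).

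For 40 of the 43 keratins that were not called, the confidence interval of the change lay inside 2-fold in either direction, with bounds from −0.45 to 0.78. The 3 exceptions were Krt6a, Krt10 and Krt19. Such an interval bounds the reading of the probe set and not the change of the RNA. Changes of dim probe sets can also be understated. The Krt14 probe set 1455573_at, at 4.11 in − dox cells, had an interval of −0.46 to 0.24. Probe sets 1423935_x_at and 1460347_at of the same gene, at 4.55 and 4.23 in − dox cells, changed by 3.67 and 2.46. Why these probe sets differ was not tested. In 9 keratins (Krt2, Krt12, Krt17, Krt18, Krt25, Krt26, Krt28, Krt35 and Krt82) every array was under its lower quartile, so a difference there would be hard to see on these arrays. In bulk RNA, more cells with a keratin and more of its RNA per cell cannot be told apart.

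Keratin genes lie in a type I cluster on chromosome 11 and a type II cluster on chromosome 15, with the type I gene Krt18 at the end of the latter. Called genes lay among genes that were not called. On chromosome 11 the order was Krt13, Krt15, Krt19 (1.08, not called), Krt9 (not measured), Krt14 and Krt16, so Krt13, Krt14 and Krt16 lay close together. Their grouping was not tested. Krt14 and Krt16 were next to each other on chromosome 11, followed by Krt17 (change 0.09) and Krt42 (−0.11). Krt13 stood between Krt36 (0.15) and Krt15 (0.01), and Krt20 between Krt12 (0.36) and Krt23 (0.01). On chromosome 15, Krt6b lay between Krt75 (−0.01) and Krt6a (1.50), followed by Krt5 (−0.05). By type, 4 of 25 type I (16%) and 1 of 23 type II genes (4.35%) were called higher, against 3.07% of all genes.

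**Figure D3:**
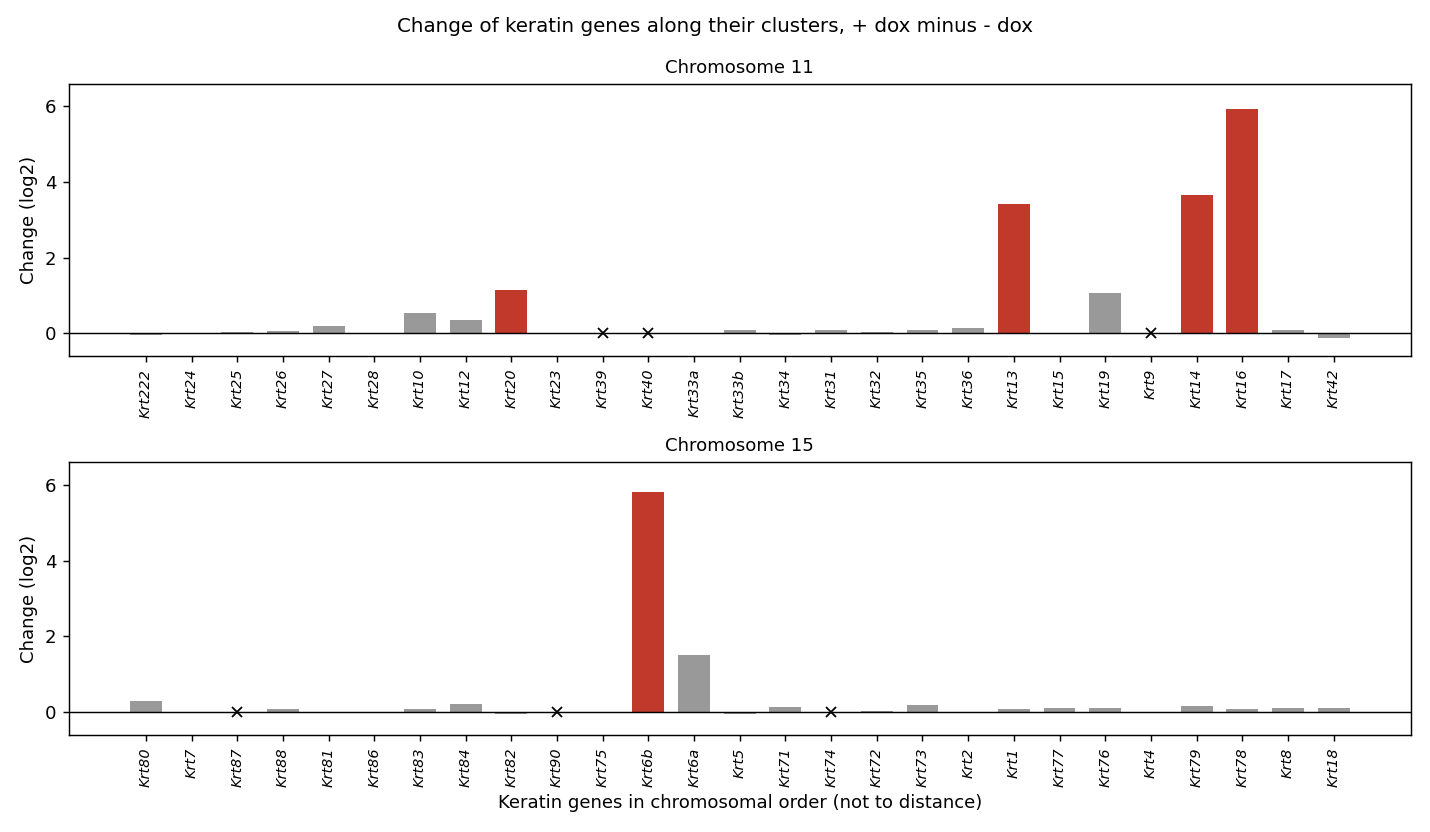
Change of keratin genes (+ dox minus − dox, log2 scale) in their order along chromosomes 11 and 15, with no distances shown. Red bars passed the adjusted test, grey bars did not, and crosses are genes without a measured value. Krt16 and Krt14 stand beside Krt17 at 0.09, and Krt6b beside Krt75 at −0.01.

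Start-site windows of 3 keratins are shown so that 2 called genes can be read beside Krt5, the uncalled partner of Krt14. They run from 250 bases before to 50 bases after the RefSeq start (GRCm38.p6) and are written 5′ to 3′ on the gene's strand. Capitals mark matches on either strand to 5 motifs. TATAAA is the core of the box that places many starts. CACCC is a core bound by Klf factors. TGANTCA, with N any base, includes the AP-1 sites TGACTCA and TGAGTCA. ATGCAAAT is the octamer bound by Oct factors. CCAAT is a common proximal promoter element. A match on the opposite strand appears as the reverse complement. All windows lie on the minus strand.
Krt13, chr11:100121517-100121816: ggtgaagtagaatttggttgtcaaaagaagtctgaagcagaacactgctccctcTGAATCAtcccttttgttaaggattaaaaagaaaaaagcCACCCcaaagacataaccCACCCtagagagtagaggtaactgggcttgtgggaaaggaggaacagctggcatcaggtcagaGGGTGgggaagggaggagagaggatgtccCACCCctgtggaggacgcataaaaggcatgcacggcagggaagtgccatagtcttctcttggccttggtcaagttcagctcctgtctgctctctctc
Krt20, chr11:99438104-99438403: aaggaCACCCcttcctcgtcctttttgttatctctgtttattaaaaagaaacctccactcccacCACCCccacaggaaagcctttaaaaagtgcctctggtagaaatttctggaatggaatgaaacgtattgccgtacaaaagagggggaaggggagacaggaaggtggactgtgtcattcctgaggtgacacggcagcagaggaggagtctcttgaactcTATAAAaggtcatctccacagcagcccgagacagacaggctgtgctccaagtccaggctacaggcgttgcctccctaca
Krt5, chr15:101712856-101713155: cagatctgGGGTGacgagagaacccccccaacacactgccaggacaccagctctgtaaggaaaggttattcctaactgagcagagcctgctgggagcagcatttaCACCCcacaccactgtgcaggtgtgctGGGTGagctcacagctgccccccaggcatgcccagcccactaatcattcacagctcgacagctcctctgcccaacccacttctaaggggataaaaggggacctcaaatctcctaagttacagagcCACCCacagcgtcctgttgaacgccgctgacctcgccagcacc
In Krt20 the TATAAA began 29 bases before the start. Krt13 held 4 CACCC and 1 TGANTCA match, Krt20 held 2 CACCC matches and Krt5 held 4. The TGANTCA match of Krt13 reads TGAATCA, which is not one of the AP-1 sites given. All 3 windows had 0 octamer matches.

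Such windows were found for 32 of the 48 keratins, 25 of them at the gene's annotated outer end. Of those 25, 16 (64%) held TATAAA against 16.3% of 19827 windows of all genes, and 22 (88%) held CACCC against 54.4%. CCAAT was found in 10 (40%) against 38.2%, TGANTCA in 1 (4%) against 8.71% and ATGCAAAT in 0 against 1.96%. By call, 1 of the 2 called genes with a window held TATAAA and both held CACCC, and of the 23 others 15 and 20 did. Krt16 and Krt6b have no entry in the table used, and the entry of Krt14 lay inside the gene. A match of letters is a description and not a bound site.

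Genes that hold keratin filaments in place were mostly at similar levels in both groups. Of 17 measured genes of desmosomes, hemidesmosomes and keratin-binding proteins, 2 rose (11.8%, against 3.07% of all genes), 0 fell and the median change was 0.11. At an unadjusted p under 0.05 there were 4 (23.5%), all higher, against 21.7% of all genes in either direction and 2015 of 18193 higher. In 5 (29.4%, against 14.3% of all genes) every + dox array lay above every − dox array, and in 1 (5.88%, against 12.6%) below. The largest change of the list was that of Pkp1, 1.70, which was not called (limma adjusted p = 0.15). Itgb4 changed by 0.41 (limma adjusted p = 0.091). Fam83h, which recruits casein kinase to keratin filaments, was at 6.37, 5.59 and 6.14 in + dox arrays and at 4.81, 5.01 and 4.87 in − dox arrays. The groups did not overlap, with a change of 1.14 (SE 0.20, limma adjusted p = 0.0339), lost without + dox 3, − dox 2 or − dox 3 (1.08 to 1.19, adjusted p 0.0999 to 0.134) and with the mean of its probe sets (0.74, adjusted p = 0.0715). The cytolinker gene Eppk1 rose by 0.72 (SE 0.11, limma adjusted p = 0.025), from 4.46 ± 0.07 to 5.17 ± 0.16 (SD, n = 3), and lost its call without + dox 2, + dox 3, − dox 2 or − dox 3 (0.62 to 0.75, adjusted p 0.0801 to 0.112). Plakoglobin (Jup) differed by −0.01. Dsp, the desmosomal plaque protein that anchors keratins, differed by 0.12, at 3.31 in + dox and 3.19 in − dox cells. Dsp and Col17a1 were under the lower quartile on all arrays, so a difference there would be hard to see.

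Of 18 genes of other intermediate filaments, 0 rose, 1 fell (5.56%, against 1.8% of all genes) and the median change was −0.09. At an unadjusted p under 0.05 there were 8 (44.4%, against 21.7%), 3 higher and 5 lower. Nefl, a neurofilament subunit, was at 9.65, 8.86 and 7.61 in + dox arrays and at 10.81, 12.06 and 11.62 in − dox arrays. All + dox arrays were below all − dox arrays, and the level fell by 2.79 on the log2 scale (SE 0.55, limma adjusted p = 0.0433). This call was lost without + dox 2, + dox 3, − dox 2 or − dox 3 (adjusted p 0.101 to 0.151). Vim, the filament gene of melanocytic and mesenchymal cells, was at 13.80 in + dox and 13.48 in − dox cells (difference 0.32, adjusted p = 0.201). Nestin (Nes), of neural progenitors, was at 10.90 ± 0.14 and 10.31 ± 0.18 (SD, n = 3; adjusted p = 0.0573).

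Of 24 genes for regulators of keratin genes, 1 rose (4.17%, against 3.07% of all genes), 0 fell and the median change was 0.03. At an unadjusted p under 0.05 there were 6 (25%, against 21.7%). Junb, an AP-1 subunit, was at 9.44, 9.42 and 9.68 in + dox arrays and at 8.50, 9.03 and 8.56 in − dox arrays. The groups did not overlap (change 0.82, SE 0.17, limma adjusted p = 0.0473), but the call was lost with any 1 array left out (adjusted p 0.053 to 0.17). Ehf, an epithelial Ets factor, was at 6.63, 3.96 and 5.89 against 2.62, 2.86 and 2.94 (change 2.69, adjusted p = 0.0645). Gata3, also in the trophoblast list below, was at 6.87, 8.28 and 8.2 against 6.75, 5.69 and 5.77 (change 1.71, limma adjusted p = 0.0867). It was called without + dox 1 (2.17, adjusted p = 0.019), without − dox 1 (2.05, 0.0456) and without both (2.51, 6.99e-05). Without any other single array it was not called (adjusted p 0.212 to 0.27). Trp63, the master regulator of stratified epithelium, was under the lower quartile on all arrays, at 3.63 and 3.78. Klf4, a factor of the vector, was at 7.73 in + dox and 8.31 in − dox cells (difference −0.58, limma adjusted p = 0.45), and the groups overlapped. For Klf4, array − dox 1 stood apart at 9.23, with 7.85 in − dox 2 and 7.85 in − dox 3. Whether the Klf4 probe set reads the RNA of the vector was not tested.

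Markers of other cell types were read beside the keratins. Of 19 keratinocyte genes other than keratins, 3 rose (15.8%, against 3.07% of all genes) and 0 fell, with a median change of 0.20. At an unadjusted p under 0.05 there were 6 (31.6%), all higher, against 21.7% of all genes in either direction and 2015 of 18193 higher. The 3 called genes encode secreted proteins of differentiating epidermis. Dmkn rose by 6.01 (limma adjusted p = 8.12e-05) and was called whichever array was left out. Krtdap rose by 4.84 (adjusted p = 0.0277) and Sbsn by 3.16 (adjusted p = 0.0154), and both calls were lost without + dox 2, + dox 3, − dox 2 or − dox 3 (Krtdap 4.12 to 4.86, adjusted p 0.0804 to 0.118; Sbsn 2.83 to 3.17, adjusted p 0.055 to 0.0797). The list's mean level ranged over 5.48 to 6.17 in + dox cells against 4.56 to 4.67 in − dox cells. This gap lay mostly in Dmkn, Krtdap, Sbsn and Perp, while the median change of the list was 0.20. Perp was at 2.98, 6.28 and 9.36 in + dox arrays and at 3.07, 3.01 and 3.12 in − dox arrays. Its groups overlapped, and the change of 3.14 was not called (limma adjusted p = 0.275). Next were Pkp1 (1.70) and Sprr1b (1.41), also not called. Of the 19 genes, 4 (Trp63, Cdh1, Col17a1 and Flg) were under the lower quartile on all arrays.

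Of 10 trophoblast and simple epithelium genes, 1 was called (10%, against 3.07% of all genes called higher). At an unadjusted p under 0.05 there were 2 (20%, against 21.7%). The called gene was Plet1, a surface protein gene of the early placenta (change 6.92, limma adjusted p = 0.000741). With the mean of its probe sets the change of Plet1 was 4.23. The median change of the list was 0.13 and 8 of 10 members changed by less than 0.5, so the gap between its mean levels, 5.57 to 5.83 in + dox and 4.74 to 4.84 in − dox cells, lay mostly in Plet1 and in Gata3 (1.71, adjusted p = 0.0867). Cdh1 and Elf5 were under the lower quartile on all arrays, while Cdx2 (5.30 in + dox and 5.17 in − dox cells), Eomes (5.97 and 5.81) and Epcam (6.37 and 6.47) were above it on all arrays. Cdx2 lay near the array median. A value above the lower quartile does not by itself show that a gene is expressed. Of 10 fibroblast and mesothelial genes, 1 was called (10%, against 3.07% of all genes called higher). At an unadjusted p under 0.05 there were 2 (20%, against 21.7%). The called gene was Msln, the gene of mesothelin (change 7.41, limma adjusted p = 3.37e-06). The median change of the list was 0.06 and 8 of 10 members changed by less than 0.5, so the gap between its mean levels, 5.15 to 5.26 against 4.24 to 4.44, lay mostly in Msln, with Dcn next (0.85, adjusted p = 0.0525). Lum and Wt1 were under the lower quartile on all arrays.

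Of 10 melanocyte genes, 0 were called by limma, against 3.07% of all genes called higher and 1.8% lower. At an unadjusted p under 0.05 there were 0, against 21.7% of all genes, and the median change was 0.03. Their mean level ranged over 4.68 to 4.80 in + dox cells against 4.76 to 4.85 in − dox cells. The pigment genes Tyr and Mlana were under the lower quartile on all arrays of both groups. The melanocyte factors Mitf, at 6.47 and 7.23, and Sox10, at 6.34 and 6.23, and the melanosome gene Pmel were above it on all arrays. The difference of Mitf was −0.76 (adjusted p = 0.343), and −0.30 without − dox 1. The part of other cell types in the keratin changes was not tested.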

How the data were processed

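Expression was measured on 6 arrays, 3 + dox and 3 − dox, grouped by the labels. The authors deposited log2 values per probe set, made with RMA (background correction, quantile normalisation, probe set summary) in Chipster, and the Chipster version was not given in the sources used here. RMA pulls dim probe sets toward a floor, so changes of dim genes are understated. The table held 45101 probe sets rounded to 2 decimals, and 64 controls were left out. Gene names came from the platform annotation. The two-sided test was lmFit with eBayes of limma 3.58.1 (R 4.3.3), without covariates, and levels are means ± SD. Depth has no meaning for arrays, and their number limits the precision. Motifs were searched in RefSeq windows with Python.

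The members and lists were chosen with earlier results of these data known. Named keratins were those called, their partners, those at an unadjusted p under 0.05 and the 2 brightest per role. In other lists they were called genes or the 2 with the smallest p. Krt4, Krt7, Krt12, Krt15, Krt23, Krt36, Krt73, Krt75, Krt84, Dsp, Jup, Pkp1, Itgb4, Vim, Klf4, Trp63 and the marker genes with neither a call nor one of the smallest p-values were named outside this rule, with their values known.

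Alternatives were the replicate number as a term, the mean or the most variable of a gene's probe sets, filters at 20% and 40%, trend and robust eBayes, quantile normalisation, median centring, arrays left out, probe sets in place of genes, and other thresholds.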

Additional observations from a re-analysis of the deposited data

How the results depend on the processing

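Krt16, Krt6b and Krt14 were called under every alternative run, arrays left out included. Their changes over single arrays left out were 5.59 to 6.23, 5.69 to 6.03 and 3.40 to 3.94. Krt13 and Krt20 were not: with the replicate number as a block their adjusted p-values were 0.0773 and 0.0675. The count of called keratins, 5, fell to 3 under the replicate block, under the 40% filter (13 keratins left), in the treat test and at an adjusted p under 0.01. It was 3 to 5 with single arrays left out, and 7 without both arrays numbered 1 and at an unadjusted p under 0.05 with over 2-fold. Called keratin probe sets, 5, were 3 under the block and 3 to 7 with arrays left out. The labels' replicate numbers were not taken as pairs, since same-numbered arrays deviated together by correlations of −0.118, −0.22 and 0.0817. Calls over all genes were 886, against 303 with the block, 119 to 1650 with single arrays left out, 3658 without both arrays numbered 1, 51 in the treat test and 128 at 0.01.

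Near-zero changes turned sign in 7 cases: Krt1 without − dox 3 (−0.01, range with single arrays left out to 0.14), Krt5 without − dox 2 (0.02, range from −0.13), Krt8 without + dox 3 (−0.02, range to 0.29), Krt78 without both arrays numbered 1 (−0.03) and Krt81 without + dox 3 (−0.04), − dox 1 (−0.02) or − dox 3 (−0.01), with a range to 0.08. Called genes of the other intermediate filament list were 1, with 0 under the block, 3 with the mean of probe sets or the most variable probe set, 0 to 2 with arrays left out and 7 without both arrays numbered 1. For attachment genes they were 2, with 0 under the block, 1 with the mean of probe sets, 0 to 2 with arrays left out and 3 without both arrays numbered 1. For regulators they were 1, with 0 under the block, the most variable probe set, trend and robust eBayes or quantile normalisation, 0 to 2 with arrays left out and 7 without both arrays numbered 1. For keratinocyte markers they were 3, with 1 under the block, 1 to 4 with arrays left out and 7 without both arrays numbered 1. Trophoblast and fibroblast lists had 1 call each, 1 to 2 with arrays left out and 2 without both arrays numbered 1. Causes were not tested. Signal limits the 9 keratins under the lower quartile on all arrays.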

Other observations

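Krt13 and Krt6a were the 2 of 48 keratins whose + dox arrays spread by an SD over 1, and both were highest in + dox 1 and lowest in + dox 2. Among all 64 genes with such a spread and every + dox array above every − dox array, 8 (12.5%) had that order, and 54 (84.4%) were lowest in + dox 1, the + dox array nearest to the − dox arrays. The desmosomal gene Pkp1, at 9.73, 7.28 and 8.28 in + dox arrays 1, 2 and 3, and the Ets factor gene Ehf, at 6.63, 3.96 and 5.89, were picked with their values known and had the order of Krt13. The differentiation gene Krtdap had the more frequent order, at 6.57, 9.07 and 9.98.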
